A study of Homo sapiens with 8 samples.

Results

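The hexokinase genes HK1, HK2, HK3 and HKDC1 were followed by PRO-seq, which maps the nascent RNA held by engaged RNA polymerases and so reports transcription in progress rather than stored mRNA. They were taken by gene symbol, with earlier results of these data known, and make up 4 of the 23193 genes counted. The cells were HCT116, an established human colorectal carcinoma line, either wild-type (WT) or HIF1A-/-. The HIF1A-/- cells are a single derived line in which exons 3 and 4 of the gene for HIF1A, the oxygen-regulated transcription factor, were disrupted by viral homologous recombination. Each genotype was kept in normoxia (21% O2) or exposed to hypoxia (1% O2) for 90 min, and all cultures carried 0.1% DMSO as vehicle. There were 2 libraries in each of the 4 groups and 8 in all, numbered as replicates 1 and 2.

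Hexokinases add a phosphate to glucose as it enters the cell, which traps the sugar and commits it to glycolysis, glycogen synthesis or the pentose phosphate pathway. HK1 is the broadly expressed isoform and sits on the outer mitochondrial membrane. HK2 is the inducible isoform of muscle, fat and many tumours and is a textbook target of HIF1A. HK3 is best known from myeloid blood cells, and HKDC1 is a later-recognised relative encoded next to HK1. The comparison between genotypes asks how far transcription of these genes in acute hypoxia differs when HIF1A is absent.

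The reads of each gene were counted in a TSS region, from 50 bp before to 500 bp after a chosen transcription start site, and in a gene body region that runs from 1001 bp after that site to the gene end. Gene body totals ran from 18125234 to 23622392 reads per library and TSS totals from 2783581 to 5966348. Levels are given as counts per 1000000 reads of the same table (CPM) and, wherever genes are compared with each other, as CPM per kb of region (RPKM). Of 16686 gene bodies tested, all 4 hexokinase genes passed the filter on low counts. All 7 colorectal epithelial markers passed the filter, against 1 of 5 myeloid markers, 2 of 3 fibroblast and endothelial markers and 0 of 3 liver and islet markers. Of the liver and islet markers, INS was not among the genes counted. KRT20 was at 0.105 to 0.607 CPM in WT and 5.73 to 10.3 CPM in HIF1A-/- cells, and VIL1 was at most 0.635 CPM. The summed gene body level of the epithelial markers was 587 to 765 CPM per library, with KRT8 at 338 to 516 CPM. Fibroblast and endothelial markers summed to 19.2 to 52.5 CPM, with COL1A1 at up to 50.3 CPM, and myeloid markers to 1.05 to 4.58 CPM. The myeloid marker that passed was SPI1, at 0.727 to 3.81 CPM, while PTPRC and LYZ were at or below 0.444 and 0.145 CPM. HIF1A itself had gene body levels of 134 and 150 CPM in normoxic and 129 and 164 CPM in hypoxic WT cells, against 157 and 141 and then 172 and 166 CPM in HIF1A-/- cells. Since the disrupted exons leave the start site of HIF1A in place, these reads do not check the genotype.

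On GRCh37, the HK2 gene body region was chr2:75060782-75120481 on the plus strand (59.7 kb). That of HK1 was chr10:71079603-71161638 on the plus strand (82.0 kb), and that of HKDC1, chr10:70981059-71027315, lay upstream of it on the same strand (46.3 kb). The gap between the HKDC1 and HK1 gene bodies was 52.3 kb. HK3 was counted on the minus strand at chr5:176307869-176325332 (17.5 kb). The first part of HKDC1 overlaps LOC101928994 and the far end of the HK3 body overlaps that of UNC5A, both on the opposite strand. The paper's methods used sense and antisense reads to choose the counted starts. Whether the final counting used the strand is not stated in the sources used here.

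The 250 bases upstream of each start are shown because HIF1A is known to bind a short DNA core, and the genes differed in how many copies of it lay there. The letters searched were ACGTG and GCGTG on both strands, and capitals mark each match as it reads on the strand of the gene. Bases are written 5′ to 3′ along the gene from GRCh37, and the stretches of HK2 and HK3 are identical to sequence in the RefSeq promoter table (GRCh38.p14). For HK2 the nearest protein-coding start in the GENCODE annotation was used, for the reason given in the next paragraph.
HK2, chr2:75061004-75061253, plus strand: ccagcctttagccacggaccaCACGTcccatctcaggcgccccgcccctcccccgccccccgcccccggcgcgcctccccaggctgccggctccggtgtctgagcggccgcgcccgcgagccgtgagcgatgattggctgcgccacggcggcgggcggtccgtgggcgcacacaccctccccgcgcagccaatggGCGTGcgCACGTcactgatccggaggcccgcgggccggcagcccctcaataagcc
HK1, chr10:71078352-71078601, plus strand: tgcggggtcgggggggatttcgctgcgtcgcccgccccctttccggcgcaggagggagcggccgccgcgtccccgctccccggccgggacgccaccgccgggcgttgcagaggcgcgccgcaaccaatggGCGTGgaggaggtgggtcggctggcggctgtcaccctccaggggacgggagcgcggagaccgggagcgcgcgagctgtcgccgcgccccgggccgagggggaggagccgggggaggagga
HK3, chr5:176326334-176326583, minus strand: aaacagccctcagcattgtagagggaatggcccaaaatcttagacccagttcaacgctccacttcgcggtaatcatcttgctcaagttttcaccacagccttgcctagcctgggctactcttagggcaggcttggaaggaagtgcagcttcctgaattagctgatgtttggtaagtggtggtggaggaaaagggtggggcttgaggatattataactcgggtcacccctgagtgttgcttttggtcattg
HKDC1, chr10:70979808-70980057, plus strand: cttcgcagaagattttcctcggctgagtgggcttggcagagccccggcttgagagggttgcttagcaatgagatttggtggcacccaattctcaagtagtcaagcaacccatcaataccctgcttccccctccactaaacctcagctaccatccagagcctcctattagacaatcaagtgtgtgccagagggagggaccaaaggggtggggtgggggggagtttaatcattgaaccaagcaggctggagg
The HK2 stretch held 3 matches, of which ACGTG lay on the opposite strand 229 to 225 bp and again 48 to 44 bp before the start, and GCGTG on the gene's strand 55 to 51 bp before it. HK1 had 1 match, GCGTG on the gene's strand at 120 to 116 bp, and HK3 and HKDC1 had 0. The stretch before the counted start of HK2 held 1 match. Stretches of the same length before all 23193 counted starts held at least 1 match in 47.0% and at least 3 in 8.14%. Both motifs share the letters CGTG, the word CACGTG matches on both strands, and base composition was unequal, with 76.8% G and C in the HK2 stretch, 79.2% in HK1, 50% in HK3 and 54.0% in HKDC1. A match describes the letters only, and binding was not analysed here.

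The paper's methods took counted starts from RefSeq transcripts and kept the most active one per gene. For HK2 that start did not fall at a protein-coding start of the GENCODE annotation, which supplies the annotated starts named here. The counted start lay at position 75059781 of chromosome 2. The nearest protein-coding start in GENCODE is at 75061254, which is 1473 bp further downstream and 472 bp inside the counted gene body. HK2 had TSS counts of 0 and 0 in normoxic WT cells, 2 and 1 in hypoxic WT cells, and 0 in all 4 HIF1A-/- libraries, while its gene body held 1068 to 17150 reads. Whether the offset accounts for these low counts was not tested. An offset of over 500 bp was found for 424 of 15021 tested genes that could be matched to the annotation (2.82%), and 79.1% lay within 50 bp. These shares use the nearest start of any transcript type, whereas the offsets given for the hexokinase genes are to protein-coding starts. TSS counts of at most 3 in every library were found for 13 of 691 gene bodies at least as highly transcribed as HK2 by mean CPM (1.88%), against 2233 of all 16686 (13.4%). The counted starts of HK1, HK3 and HKDC1 lay 1, 14 and 30 bp from an annotated start. HKDC1 had 0 to 5 TSS reads per library even so. No fold change or pausing index is given for HK2 or HKDC1 at the TSS, since at least 1 group of each lay at or under 3 reads in both libraries.

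**Figure D1:**
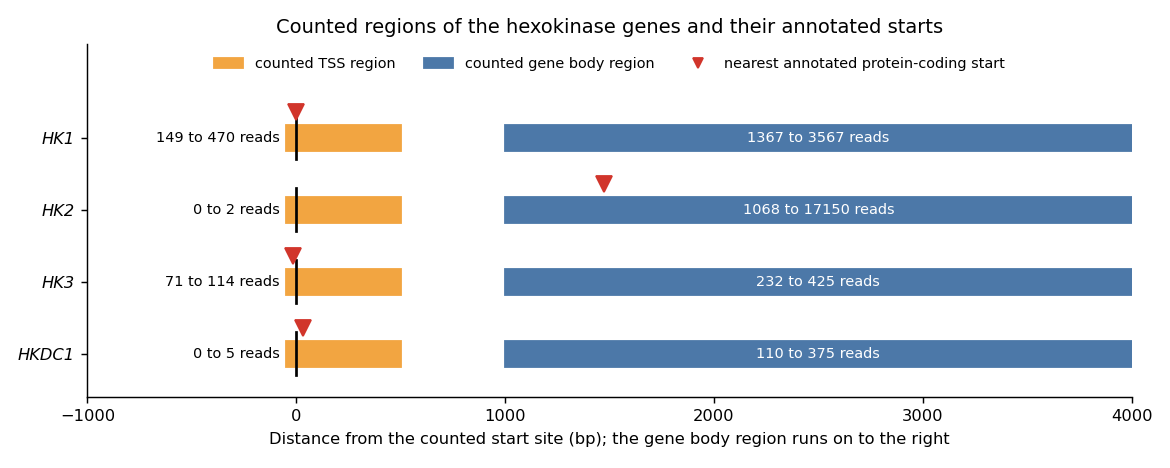
Counted TSS region (orange, drawn from 50 bp before to 500 bp after the counted start), the first part of the counted gene body (blue, from 1001 bp on) and the nearest annotated protein-coding start (red triangle) for each hexokinase gene, on an axis of distance from the counted start in bp, read in the direction of transcription. Texts give the lowest and highest read count of the 8 libraries in each region, and the annotated start of HK2, 1473 bp downstream, falls in the region counted as gene body, whereas those of the other 3 genes lie within 30 bp of the counted start.

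HK2 rose in hypoxic WT cells. Its gene body level was 103 and 112 CPM in normoxia and 538 and 726 CPM in hypoxia. The lower hypoxic library was far above both normoxic libraries, and the change within same-numbered libraries was 5.23-fold and 6.51-fold. The log2 fold change was 2.53 ± 0.36 (SE, n = 2 libraries per group), with an adjusted p of 0.0459 by the quasi-likelihood test of edgeR. HK2 was the 1 hexokinase gene of 4 called higher at an FDR of 10%, in a comparison that called 0.431% of all gene bodies higher (72 of 16686) and 0 lower, with 184 lower at an unadjusted p under 0.05 in edgeR and 1 called lower by DESeq2. By log2 fold change HK2 stood at position 24 of 16686 and at position 14 of the 72 called, whose median was 1.55. Its place by RPKM among the tested gene bodies went from 6561 to 595, counting from the most highly transcribed. The call was lost when any of the 4 WT libraries was left out, while the log2 fold change stayed between 2.32 and 2.71. In bulk nuclei, more polymerases per cell and more cells transcribing a gene cannot be told apart.

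HK1, the broadly expressed isoform, changed less. Its gene body level was 79.7 and 75.4 CPM in normoxic and 127 and 151 CPM in hypoxic WT cells. Both hypoxic libraries lay above both normoxic libraries, by 1.59-fold and 2.00-fold within same-numbered libraries. The log2 fold change of 0.81 ± 0.15 (SE) missed the threshold in the fit without pairing (adjusted p = 0.116, edgeR). With the replicate number as a block it was 0.80 ± 0.11 and passed (adjusted p = 0.00891), so that 2 of 4 hexokinase genes were then called higher, in a fit that called 3.73% of gene bodies higher. DESeq2 without the block also called it, with an adjusted p of 0.000916, beside 1.04% of gene bodies called higher.

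HK3 and HKDC1 did not pass in WT cells under any of the alternatives run. HK3, the myeloid isoform, had 15.6 and 12.8 CPM in normoxia and 16.8 and 12.1 CPM in hypoxia. These values overlapped fully, with a log2 fold change of 0.00 ± 0.24 (SE; adjusted p = 0.997, edgeR). HKDC1 had 8.07 and 13.4 CPM in normoxia and 9.11 and 15.9 CPM in hypoxia. Its replicate 2 was higher than replicate 1 in both WT conditions and the groups overlapped, with a log2 fold change of 0.19 ± 0.34 (SE; adjusted p = 0.919, edgeR). The standard errors leave room for moderate changes of either gene.

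**Figure D2:**
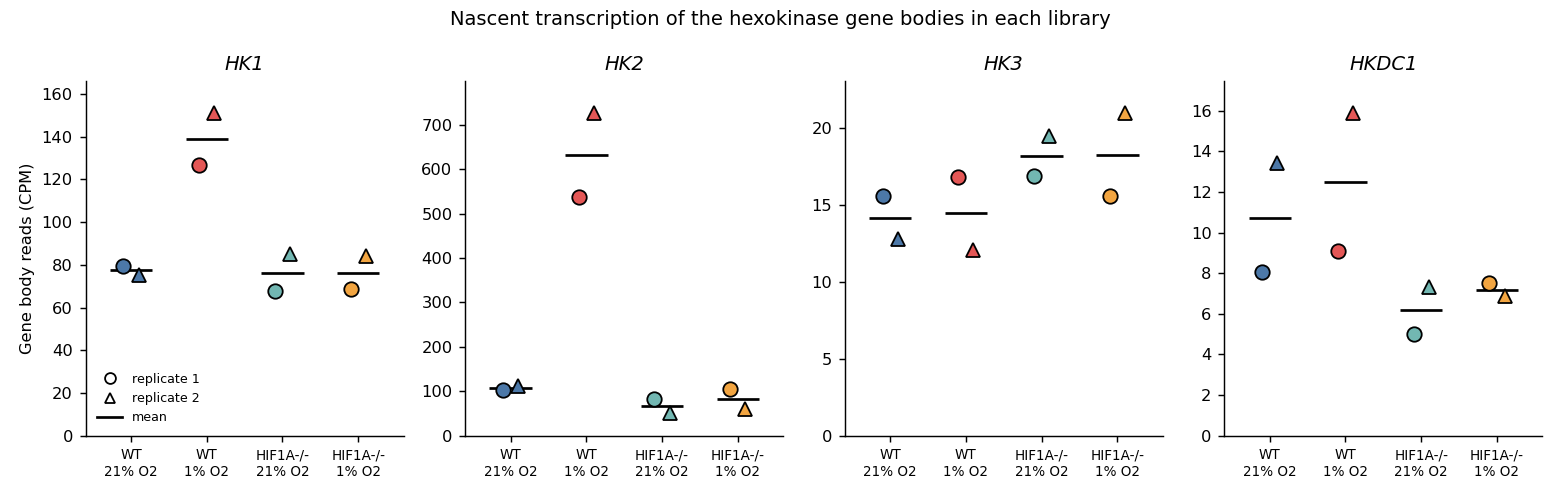
Gene body level in CPM (linear axes from 0, a separate scale per gene) of each hexokinase gene in each of the 8 libraries, with circles for replicate 1, triangles for replicate 2 and a black line at the mean of the 2 libraries of a group. HK2 and HK1 stand apart in hypoxic WT cells, at 538 and 726 CPM and at 127 and 151 CPM, whereas the libraries of HK3 and HKDC1 overlap between normoxia and hypoxia.

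None of the 4 genes passed the test for a change with hypoxia in HIF1A-/- cells, where edgeR called 0 genes of 16686 (175 higher and 172 lower at an unadjusted p under 0.05). The counts called higher and lower were 5 and 1 in edgeR with the block, 2 and 6 in DESeq2, and 64 and 98 in DESeq2 with the block. HK2 had 82.6 and 50.5 CPM in normoxia and 104 and 59.2 CPM in hypoxia. The groups overlapped, each library of a number was slightly higher in hypoxia, by 1.26-fold and 1.17-fold, and the log2 fold change was 0.26 ± 0.34 (SE; adjusted p = 1, edgeR). HK1 had 67.5 and 85.1 CPM in normoxia and 68.6 and 84.0 CPM in hypoxia, with a log2 fold change of -0.04 ± 0.15 (SE). HK3 had 16.9 and 19.5 and then 15.6 and 20.96 CPM, and HKDC1 had 5.00 and 7.33 and then 7.52 and 6.86 CPM. For these the log2 fold changes were -0.04 ± 0.23 and 0.19 ± 0.35 (SE), and the conditions overlapped in each case.

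The difference between the genotypes in the response was tested as an interaction. For HK2 the WT response exceeded that of HIF1A-/- cells by 2.27 ± 0.49 (log2, SE), with an unadjusted p of 0.00162 and an adjusted p of 0.602 by edgeR, so that it was not called. The blocked edgeR fit gave 2.29 with an adjusted p of 0.109. DESeq2 called it, with 2.28 and an adjusted p of 0.000712, in a comparison where it called 0.408% of gene bodies higher, and DESeq2 with the block, which called 0.731% higher, gave an adjusted p of 0.0444. For HK1 the difference was 0.85 ± 0.21 (SE; adjusted p = 0.940, edgeR), and of the alternatives only DESeq2 with the block called it (adjusted p = 0.00342). The differences for HK3 and HKDC1 were 0.03 ± 0.33 and 0.00 ± 0.46 (SE).

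In hypoxia, HIF1A-/- cells transcribed less HK2 and HK1 than WT cells. HK2 was at 104 and 59.2 CPM against 538 and 726 CPM, a log2 difference of -2.94 ± 0.36 (SE; adjusted p = 0.00741, edgeR), and this was called under every alternative run. HK1 was at 68.6 and 84.0 CPM against 127 and 151 CPM, a log2 difference of -0.88 ± 0.15 (SE; adjusted p = 0.0250, edgeR). The call for HK1 was lost without replicate 2 of hypoxic WT cells (-0.75, adjusted p = 0.219) and without replicate 1 of hypoxic HIF1A-/- cells (-0.77, adjusted p = 0.208). Thus 2 of 4 hexokinase genes were called lower, beside 2.79% of all gene bodies (466 of 16686). HKDC1 had a log2 difference of -0.80 ± 0.35 (SE) and was called only with the block (adjusted p = 0.0668 in edgeR, against 0.315 without), in a fit that called 15.1% of gene bodies lower, and by DESeq2 with the block (adjusted p = 0.0450), which called 12.2% lower. All 4 HIF1A-/- libraries of HKDC1, at 5.00 to 7.52 CPM, lay below all 4 WT libraries, at 8.07 to 15.9 CPM. HK3 ran the other way, at 15.6 and 20.96 CPM against 16.8 and 12.1 CPM, with overlapping libraries and a log2 difference of 0.32 ± 0.24 (SE; adjusted p = 0.561, edgeR).

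In normoxia no hexokinase gene was called between the genotypes in edgeR. The log2 differences of HIF1A-/- minus WT cells were -0.67 ± 0.34 for HK2, -0.03 ± 0.15 for HK1, 0.35 ± 0.24 for HK3 and -0.80 ± 0.35 for HKDC1 (SE; adjusted p = 0.668, 0.991, 0.824 and 0.557, edgeR). Both HIF1A-/- libraries of HK2 and of HKDC1 lay below both WT libraries, both of HK3 lay above, and those of HK1 overlapped. HKDC1 passed in DESeq2 with the block alone (adjusted p = 0.0702), where 5.36% of gene bodies were called lower. Since each genotype is a single line, a difference between genotypes cannot be told apart from a difference between lines.

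**Figure D3:**
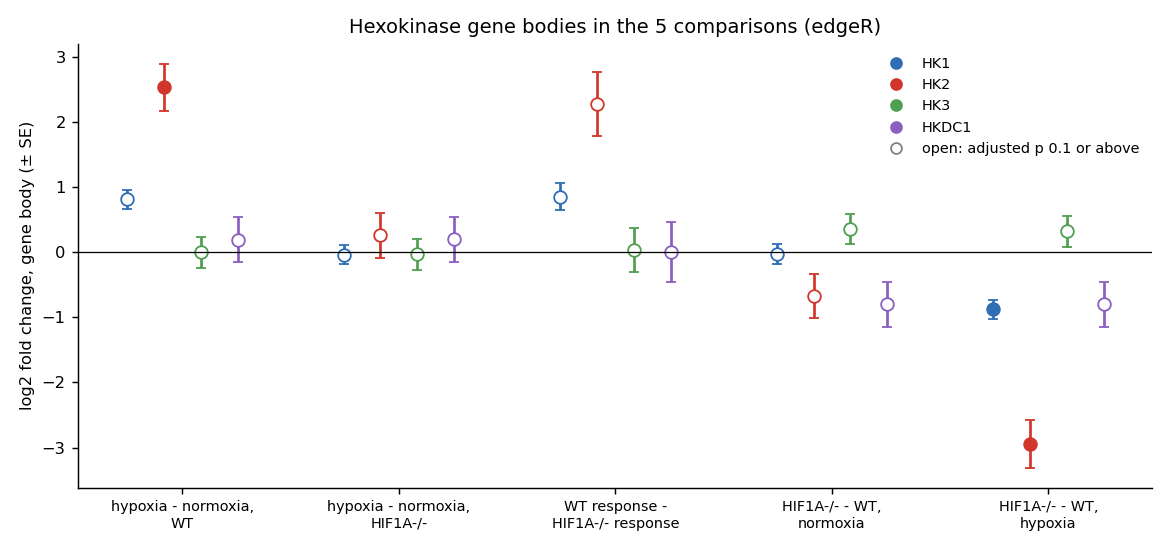
Log2 fold change of the gene body with its standard error (bars) for HK1, HK2, HK3 and HKDC1 in the 5 comparisons, from the edgeR fit without pairing, with filled points for an adjusted p under 0.1 and open points for the rest. Filled are HK2 in WT cells (2.53) and HK2 and HK1 between genotypes in hypoxia (-2.94 and -0.88).

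By density over the counted gene body, HK2 was the highest of the 4 genes in WT cells and HKDC1 the lowest. The HK2 region is unlike the others because it holds its nearest annotated protein-coding start and any reads near it. The gene bodies of HK1, HK3 and HKDC1 begin 1000, 1015 and 971 bp past their nearest annotated starts. HK3 has another protein-coding start at position 176311135 of chromosome 5, which also lies within its counted gene body. How far reads near the start raise the HK2 density could not be measured from these counts. The place of HK2 in the order, its share of the family and the rank of its fold change carry that limit. In normoxic WT cells the gene body density was 1.80 ± 0.10 RPKM for HK2, 0.945 ± 0.037 for HK1, 0.812 ± 0.112 for HK3 and 0.232 ± 0.082 for HKDC1 (mean ± SD, n = 2). The densities of HK1 and HK3 in this group were 0.971 and 0.919 against 0.891 and 0.733 RPKM, a gap close to their spread. In hypoxic WT cells HK2 reached 10.6 ± 2.23 RPKM, HK1 1.69 ± 0.21, HK3 0.828 ± 0.194 and HKDC1 0.270 ± 0.103. In HIF1A-/- cells the order of HK2, HK1 and HK3 could not be set. HK2 had 1.38 and 0.846 RPKM in normoxia, where HK1 had 0.823 and 1.04 and HK3 had 0.968 and 1.12, and in hypoxia the densities were 1.75 and 0.992, 0.836 and 1.02, and 0.893 and 1.20 RPKM. HKDC1 stayed the lowest in all 8 libraries, at 0.108 to 0.343 RPKM.

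The summed density of the family was 3.76 and 3.81 RPKM in normoxic WT cells and 11.7 and 15.0 RPKM in hypoxic WT cells, against 3.16 to 3.64 RPKM in the 4 HIF1A-/- libraries. HK2 supplied 45.8% and 49.0% of that sum in normoxic and 76.9% and 80.9% in hypoxic WT cells. In HIF1A-/- cells its share was 42.1% and 26.8% without hypoxia and then 48.0% and 29.5%, higher in replicate 1 of both conditions. The ratio of HK2 to HK1 density went from 1.77 and 2.03 to 5.83 and 6.61 in WT cells, and was 1.68 and 0.816 and then 2.09 and 0.969 in HIF1A-/- cells. These shares and ratios set a region that includes the nearest annotated start of HK2 against regions that leave out those of the other genes. They describe transcription, not enzyme amount.

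**Figure D4:**
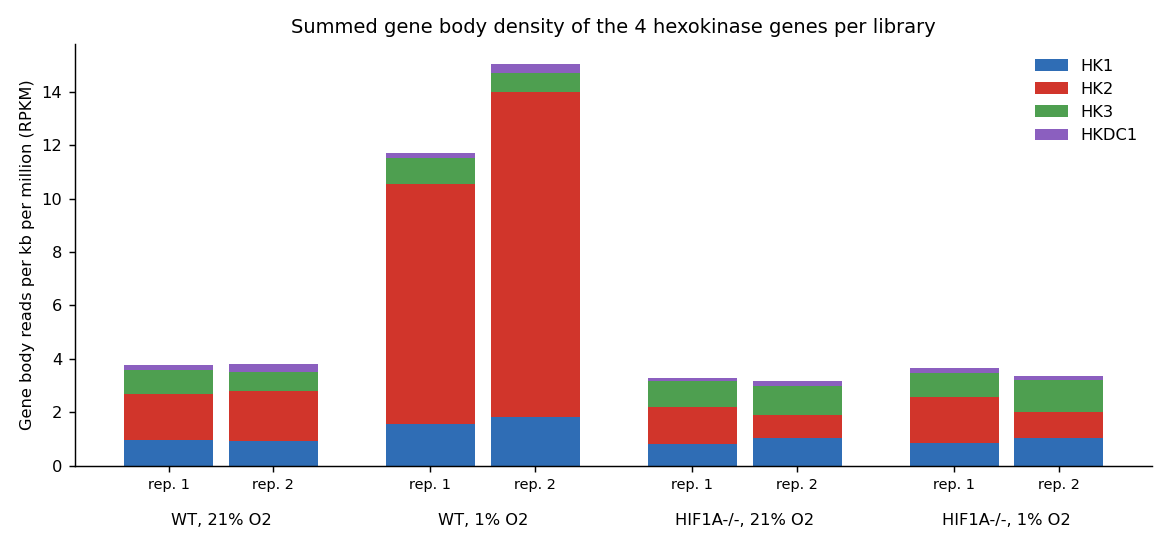
Gene body density in RPKM (bars from 0) of the 4 hexokinase genes stacked for each of the 8 libraries, replicates 1 and 2 side by side within each genotype and oxygen level. The hypoxic WT libraries reach 11.7 and 15.0 RPKM, mostly HK2, and the other 6 libraries lie between 3.16 and 3.81 RPKM.

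At the TSS, HK1 and HK3 could be measured. HK1 had 60.0 and 71.9 CPM in normoxic and 76.1 and 78.8 CPM in hypoxic WT cells, a log2 fold change of 0.26 ± 0.25 (SE; adjusted p = 0.922, edgeR). In HIF1A-/- cells it had 54.2 and 69.7 CPM and then 49.5 and 87.0 CPM. The pausing index, the density of reads at the TSS over that in the gene body, was 112 and 142 for HK1 in normoxic and 89.4 and 77.7 in hypoxic WT cells. Both hypoxic values were below both normoxic values, with a log2 change of -0.57 ± 0.23 (SE) that was not called (unadjusted p = 0.0238, adjusted p = 0.857, edgeR). Its values in HIF1A-/- cells were 120 and 122 without hypoxia against 107 and 154 with it, and the difference between genotypes was -0.70 ± 0.32 (log2, SE; adjusted p = 1, edgeR). HK1 has 20 protein-coding transcripts in the annotation, the first of them starting at position 71029740 of chromosome 10, far upstream of the counted start, so that its gene body can hold polymerases from more than 1 start.

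HK3 had 23.0 and 18.6 CPM at the TSS in normoxic and 17.5 and 14.2 CPM in hypoxic WT cells, against 38.1 and 25.7 and then 37.9 and 19.4 CPM in HIF1A-/- cells. Of the 4 HIF1A-/- libraries, 3 lay above all 4 WT libraries. The log2 difference between genotypes was 0.62 ± 0.35 in normoxia and 0.82 ± 0.35 in hypoxia (SE; adjusted p = 0.674 and 0.330, edgeR), and in hypoxia it passed in edgeR with the block (0.78 ± 0.26, adjusted p = 0.0531), which called 7.47% of TSS regions higher. The reads behind these values are few, at 71 to 114 per library. The summed gene body level of the 5 myeloid markers was 3.04 to 4.58 CPM in WT normoxia and 1.05 to 2.41 CPM in HIF1A-/- normoxia. In hypoxia the sums of the genotypes overlapped, at 3.001 to 4.318 CPM in WT and 1.180 to 3.502 CPM in HIF1A-/- cells. SPI1 was the highest of the 5 markers in every library, at 0.727 to 3.81 CPM. The part of these markers in the HK3 values was not tested. The pausing index of HK3 was 46.8 and 46.1 and then 32.8 and 37.4 in WT cells. In HIF1A-/- cells it was 71.4 and 41.7 and then 76.9 and 29.3, and there the conditions overlapped.

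The steps around the hexokinases were described from 4 lists of genes. Glucose transporters, which bring in the substrate, had 1 of 8 tested members called higher in hypoxic WT cells, beside 0.431% of all gene bodies, and a median log2 fold change of 0.82. With the replicate block 3 of the 8 were called, beside 3.73%. That gene was SLC2A1, the GLUT1 transporter, with 95.9 and 137 CPM in normoxia and 406 and 562 CPM in hypoxia (2.03 ± 0.26, SE; adjusted p = 0.0314, edgeR). SLC2A1 had 450 and 381 CPM in normoxic and 474 and 346 CPM in hypoxic HIF1A-/- cells. It was thus already high without hypoxia in that line (HIF1A-/- minus WT in normoxia 1.84 ± 0.26, SE; adjusted p = 0.0182, edgeR), where HK2 was at 82.6 and 50.5 CPM. SLC2A3, the GLUT3 transporter, was chosen after its values were seen and was also higher in HIF1A-/- than in WT cells in normoxia, by 3.86 ± 0.51 (log2, SE; adjusted p = 0.0145, edgeR), so that 2 of 8 transporters were called higher there, beside 0.725% of gene bodies. With the block 3 of the 8 were called higher in normoxia, in a fit that called 656 of 16686 gene bodies higher. In hypoxia 1 transporter was called higher in HIF1A-/- than in WT cells and 0 lower, beside 245 and 466 gene bodies. With the block 2 were called higher there and 1 lower, beside 13.1% and 15.1% of gene bodies. The interaction of SLC2A1 was 2.08 ± 0.36 (log2, SE), with an adjusted p of 0.309 in edgeR without the block and 0.0697 with it.

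The enzymes that follow the hexokinase step, from GPI to LDHA, had 8 of 17 tested members called higher in hypoxic WT cells, beside 0.431% of all gene bodies, with a median log2 fold change of 1.25 against -0.02 over all genes tested. The 4 with the smallest p were LDHA, which makes lactate (1.66), the enolase ENO2 (1.70), the aldolase ALDOC (1.78) and the mutase PGAM1 (1.37). The log2 fold change of HK2 (2.53 ± 0.36, SE) was above the highest of the list, that of GPI (2.31 ± 0.31). HK2 and GPI lay within their standard errors of each other, and the HK2 region includes its annotated start. HK1, at 0.81, was below the list's median. In HIF1A-/- cells 0 of the 17 were called and the median was -0.05, and in hypoxia 10 of the 17 were called lower in HIF1A-/- than in WT cells (median -0.91), beside 2.79% of all gene bodies. With the replicate block these counts were 13 higher in WT cells and 13 lower between genotypes, in fits that called 3.73% and 15.1% of gene bodies. The interaction called 0 of the 17 in edgeR without the block and 8 with it, beside 0.384% of gene bodies.

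Of the partners of the hexokinase step, 0 of 7 tested were called in either direction in WT cells, with a median of 0.04. They include the mitochondrial channels VDAC1, VDAC2 and VDAC3, to which HK1 and HK2 dock, whose log2 fold changes were 0.06, 0.04 and -0.16. Of the genes for other fates of glucose 6-phosphate, the product of hexokinases, 0 of 12 were called in WT cells and the median was 0.07. DESeq2, library totals without TMM and no filter each called 1 gene of this list higher in WT cells. They called 174, 76 and 95 of all gene bodies higher. Both lists had 0 called in HIF1A-/- cells by edgeR with or without the block as well, against 1 of the second list in DESeq2 with the block, and in hypoxia 1 gene of the second, PGM2, was called lower in HIF1A-/- than in WT cells (-0.56, adjusted p = 0.0649, edgeR). With the block, edgeR called 1 gene of these 2 lists higher in WT cells, the glycogen synthase GYS1, named after its values were seen (0.87, adjusted p = 0.108 without the block and 0.0137 with it), and DESeq2 with the block called 3 genes of the second list, beside 4.03% of gene bodies. Between genotypes in hypoxia, the block raised the count of the second list to 4 lower and 1 higher, and the partner gene TIGAR was called higher (0.46, adjusted p = 0.286 without the block and 0.0196 with it). The lower genes were PGM2, PGM1, GYS1 and UGP2 and the higher one was G6PC3, all but PGM2 named after their values were seen, in a fit that called 15.1% of gene bodies lower and 13.1% higher, and DESeq2 with the block gave the same counts. In normoxia 1 gene of the second list was called lower in HIF1A-/- than in WT cells with the block, against 0 without it. That blocked fit called 1066 of 16686 gene bodies lower.

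**Figure D5:**
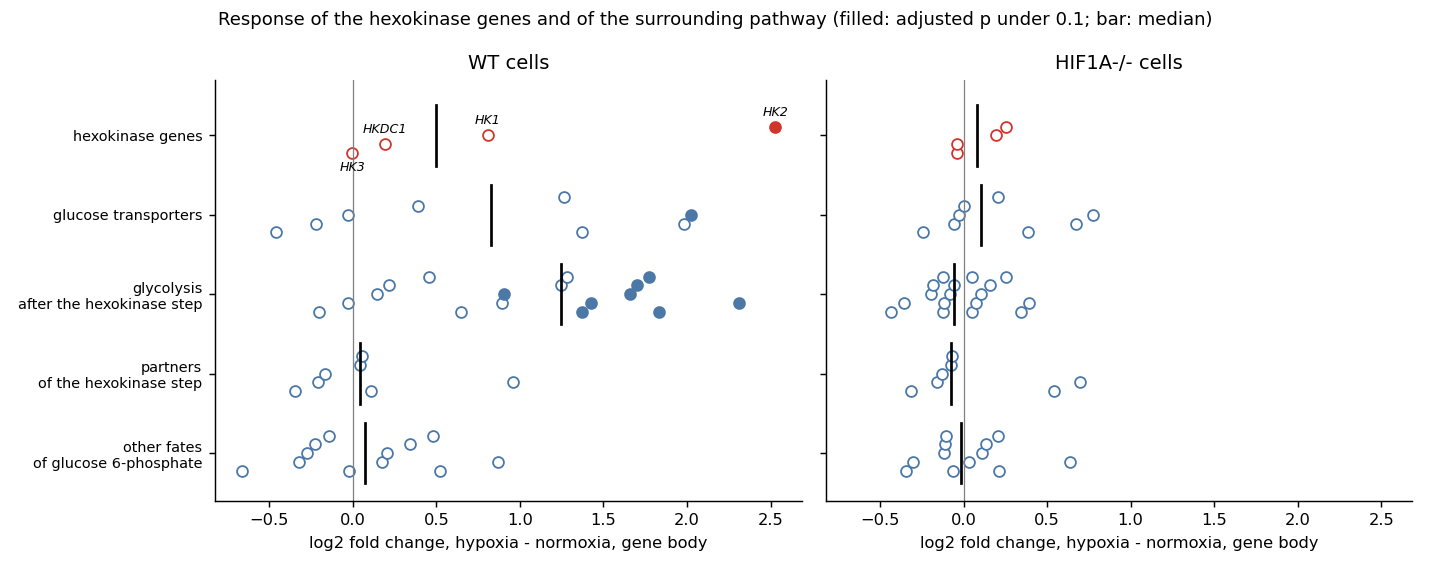
Log2 fold change of the gene body, hypoxia minus normoxia, in WT cells (left) and HIF1A-/- cells (right) for the hexokinase genes (red) and 4 lists of related genes (blue), with 1 point per gene, filled where the adjusted p was under 0.1, and a black bar at the median. In WT cells HK2 (2.53) stands to the right of all enzymes that follow it (median 1.25), the highest being GPI (2.31). HK2 and GPI lie within their standard errors of each other. In HIF1A-/- cells no point is filled.

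The genes whose pattern over the 8 libraries was most like each hexokinase gene were listed by the Pearson correlation of log2 CPM among 11585 gene bodies, as a description of 8 libraries that share their groups and depth. For HK2 they were the glycolytic genes ENO1 (0.994) and GAPDH (0.986) and DARS (0.987), which charges tRNA with aspartate. For HK1 they were INSIG2, a regulator of sterol synthesis (0.988), PDK3, a kinase that inhibits pyruvate dehydrogenase (0.988), and PFKFB4, which sets the activator of phosphofructokinase (0.986). For HK3 they were LOC101929372 (0.994), CACNA2D2 (0.961) and TRIM5 (0.952), and for HKDC1 ENAH (0.977), FNDC3B (0.970) and ACSL5 (0.969). Within the family, HK1 and HK2 had a correlation of 0.890, HKDC1 and HK3 one of -0.905.

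The genes next to HK2 were SEMA4F, 149.8 kb before it, and LINC01291, a non-coding gene on the same strand 16.8 kb past its end. LINC01291 was low, at 0.531 and 0.607 CPM in normoxic and 2.90 and 2.12 CPM in hypoxic WT cells, and 0.0946 to 0.590 CPM in HIF1A-/- cells, and it was not called in WT cells (adjusted p = 0.747, edgeR). SEMA4F had a log2 fold change of -0.23 ± 0.21 (SE) in WT cells. HKDC1 and HK1 are neighbours in tandem, and their log2 fold changes in WT cells were 0.19 ± 0.34 and 0.81 ± 0.15 (SE). The genes on their outer sides, SUPV3L1 and TACR2, had -0.08 and 0.32, with neither called. Leaving aside overlapping genes, the nearest tested genes to HK3 were UIMC1, 6.7 kb away, and TSPAN17, 221.8 kb away, with -0.02 and -0.26, and UNC5A, whose end overlaps that of HK3, had -0.18, again without a call. LOC101928994, which overlaps HKDC1, had 5.12 and 8.17 CPM in normoxic and 6.58 and 11.2 CPM in hypoxic WT cells and 3.05 to 6.17 CPM in HIF1A-/- cells. If the counting ignored strand, reads of the overlapped stretch cannot be told apart between these genes.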

How the data were processed

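Per the labels and the paper's methods, the deposited values are raw counts of PRO-seq reads per gene, 1 table for TSS regions and 1 for gene bodies. The authors merged 2 sequencing runs per sample, aligned reads to GRCh37 with HISAT2 2.1.0 without splicing, kept mapping qualities above 10 and counted with featureCounts of Subread 1.6.2, as named in the submitters' processing notes. Each gene had a single counted start and a single gene body, fixed before deposit, so reads from other starts enter the gene body. Counts were not scaled to a spike-in here, and all levels are relative to the library total.

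Genes with over 0.5 CPM in at least 2 of 8 libraries were tested (16686 gene bodies, 15212 TSS regions, 14494 for the pausing index) with the quasi-likelihood test of edgeR 4.0.16 in R 4.3.3, TMM factors, 1 fit of 4 group means per region, Benjamini-Hochberg adjustment over all genes tested and an FDR of 10%. The pausing index was tested in 1 edgeR fit of both regions with a term per library. CPM and RPKM as printed use the total of their own table without TMM. The gene body and pausing index tests were checked on simulated counts drawn independently for each library. That check held no shared replicate effect, so it does not cover the replicate deviations described below. The alternatives were a replicate block, DESeq2 1.42.0, library totals without TMM, no filter, leaving out each library, and DESeq2 with the block, which was added after seeing the data.

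After subtraction of group means, deviations of same-numbered libraries correlated in each of the 6 pairings of groups (0.484 to 0.790 over gene bodies, 0.216 to 0.519 over TSS regions). The numbers in the labels were taken to pair the samples on that basis. The main edgeR fits of TSS regions and gene bodies, and the calls drawn in the figures, do not use this pairing. The blocked value is given where it changes a call of a hexokinase gene or a count of listed genes. The study describes its replicates as independent biological duplicates, and 2 libraries per group limit all tests.

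The 4 genes and all lists were chosen with earlier results of these data known. Named genes are the members, HIF1A, up to 4 called genes with the smallest p per list in the WT comparison, the nearest tested gene on each side and the 3 most alike in pattern, and others are named as members of a list or a marker set. TXNIP, SLC2A2, SLC5A1, PKLR, G6PC and G6PC2 were among the listed genes that did not pass the filter, and some listed genes are not reported here.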

Additional observations from a re-analysis of the deposited data

How the results depend on the processing

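Of 456 values of a hexokinase gene under an alternative, 393 kept their direction and side of the threshold. The call of HK2 in WT cells was lost only when a WT library was left out (2.32 to 2.71 over all 8 omissions). HK1 in WT cells gained the call with the replicate block (0.80), in DESeq2 without (0.82) and with the block (0.81), and without the filter (0.81). Its interaction gained it in DESeq2 with the block (0.85), that of HK2 in DESeq2 (2.28) and DESeq2 with the block (2.30). HKDC1 between genotypes gained it in hypoxia with the block (-0.75) and in DESeq2 with the block (-0.74), and in normoxia in the latter (-0.77). HK3 at the TSS in hypoxia gained it with the block (0.78). The block changed no other call of a hexokinase gene.

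Leaving out single libraries moved HK1 between genotypes in hypoxia from -0.99 to -0.75. The other changes were of sign, in values that no test called. Some were near 0, and others ranged widely when a library was left out. HK3 in WT cells was 0.0017 in DESeq2 and 0.026 with library totals, and 0.0064 with library totals in HIF1A-/- cells, and the HKDC1 interaction was 0.012 in DESeq2, 0.00010 with library totals and 0.0079 without the filter. Over the omissions, gene body responses in HIF1A-/- cells ran from -0.16 to 0.074 (HK1), -0.25 to 0.71 (HK2), -0.22 to 0.14 (HK3) and -0.023 to 0.43 (HKDC1). Responses in WT cells ran from -0.28 to 0.24 (HK3) and -0.23 to 0.58 (HKDC1), interactions from -0.25 to 0.27 (HK3) and -0.43 to 0.39 (HKDC1), and HK1 between genotypes in normoxia from -0.14 to 0.11. At the TSS, HK1 ran from -0.34 to 0.48 (HIF1A-/- response), -0.21 to 0.60 (interaction), -0.26 to 0.090 and -0.68 to 0.15 (genotypes in normoxia and hypoxia), and HK3 from -0.71 to 0.25 and -0.62 to 0.34 (HIF1A-/- response, interaction). Pausing index changes in HIF1A-/- cells ran from -0.18 to 0.39 (HK1) and -0.85 to 0.49 (HK3), and the HK3 interaction from -0.88 to 0.47. These are log2 values, and their cause was not tested.

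Counts over all gene bodies moved more. In WT cells 72 were called higher and 0 lower, against 623 and 296 with the block, 174 and 1 in DESeq2, 672 and 356 in DESeq2 with the block, and 95 higher without the filter. Between genotypes in hypoxia 466 were called lower, against 2520 with the block and 790 in DESeq2, and the interaction called 9, 64 and 68 higher. Called enzymes after the hexokinase step numbered 8, 13 with the block and 11 in DESeq2, and called transporters 1, 3 and 2. With 2 libraries per group and at most 5 TSS reads of HK2 and HKDC1 per library, changes at these starts were not detectable.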
